A study of Mus musculus with 108 samples.

Results

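Transcripts of 7 matrix metalloproteinases and 3 of their tissue inhibitors were followed through myeloid cells sorted from mouse brains with and without metastases of lung tumour cells. The 10 genes were taken from the count table by their symbols: Mmp2, Mmp8, Mmp9, Mmp12, Mmp13, Mmp14, Mmp19, Timp1, Timp2 and Timp3. They are 10 of the 49585 genes counted, each symbol has 1 row, and all 10 passed the filter on low counts in all 41 comparisons. The libraries fall into 28 groups, all from mice of the Balb/C athymic nude strain (CAnN.Cg-Foxn1nu/Crl), which lack a thymus and therefore most T cells.

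Brains with tumours yielded 4 sorted populations: microglia, the brain's resident macrophages; monocyte-derived macrophages, labelled BMDM; inflammatory monocytes; and granulocytes. Without irradiation they were taken at a stage labelled small (5, 5, 4 and 4 libraries in that order) and at a stage labelled large (5 libraries each). After radiotherapy, labelled WBRT and with no stage given, they were taken after 5 fractions of 2 Gy on day 3 (4 libraries each), day 5 (4) and day 10 (3), or after 1 fraction of 10 Gy on day 3 (3). What the days are counted from is not given in the labels. Tumour-free mice gave microglia (4 libraries) and blood monocytes (4). A further 3 and 3 libraries of tumour-free microglia have titles that carry 5x2 with day 3 or day 5, but their radiotherapy field reads none. They form groups of their own here. It is not stated whether replicate libraries stem from different animals. The p-values therefore rest on the spread among these libraries, which may be technical.

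Matrix metalloproteinases are zinc-dependent proteases, most of them secreted as inactive precursors, that cut collagens, basement membrane, elastin and signalling proteins. Tissue inhibitors of metalloproteinases (TIMPs) bind the active enzyme. Enzymes and inhibitors meet in Timp2, which inhibits Mmp2 but also takes part, with the membrane-anchored Mmp14, in activating its precursor. In the brain, the gelatinases Mmp2 and Mmp9 are known for degrading the basement membrane around vessels, and neutrophils carry Mmp8 and Mmp9 ready-made in granules, so that transcript and stored protein need not go together.

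Of the 10 genes, 3 lie in a cluster of metalloproteinase genes on mouse chromosome 9 and are transcribed in the same direction. Mmp13 and Mmp12 are neighbours, and other metalloproteinase genes lie between Mmp12 and Mmp8. By the medians given further on, Mmp8 was highest in granulocytes, the population in which Mmp12 and Mmp13 were lowest. On GRCm38 (GENCODE M21), Mmp13 lies at 7272514 to 7283331, Mmp12 at 7344381 to 7369499 and Mmp8 at 7558456 to 7568485 on the plus strand. The stretch from 100 to 21 bases before each start in RefSeq (GRCm38.p6) is printed here because it is where these genes can be compared at the level of sequence. Those starts are not the GENCODE ones for Mmp12 and Mmp8, so distances do not count from the gene bounds just given. Capitals mark TGANTCA, the letters bound by AP-1, a factor known for driving several metalloproteinases.
Mmp13, chr9:7272414-7272493, plus strand: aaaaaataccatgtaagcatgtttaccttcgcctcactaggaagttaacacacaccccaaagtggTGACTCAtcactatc
Mmp12, start 1, chr9:7344297-7344376, plus strand: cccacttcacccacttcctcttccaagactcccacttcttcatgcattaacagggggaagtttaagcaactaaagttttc
Mmp12, start 2, chr9:7347274-7347353, plus strand: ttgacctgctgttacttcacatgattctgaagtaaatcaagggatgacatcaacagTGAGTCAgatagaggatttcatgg
Mmp8, chr9:7558329-7558408, plus strand: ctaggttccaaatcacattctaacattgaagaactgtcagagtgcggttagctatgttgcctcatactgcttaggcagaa

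The motif was searched on both strands in windows from 250 bases before to 50 after the start. It was present in 2565 of 32851 such windows (7.81%). Promoter windows were at hand for 7 of the 10 genes, all but Mmp2, Mmp9 and Mmp19, and 2 of the 7 held the motif. In Mmp13 it began 35 bases before the start and in the second start of Mmp12 it began 44 bases before. A match describes the letters only.

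Elsewhere in the genome (GRCm38, GENCODE M21), Mmp2 lies on chromosome 8 (92827291 to 92853420), Mmp9 on chromosome 2 (164940780 to 164955850), Mmp14 on chromosome 14 (54431612 to 54445364) and Mmp19 on chromosome 10 (128790910 to 128800824), all on the plus strand. Timp1 lies on chromosome X (20870166 to 20874735) and Timp3 on chromosome 10 (86300372 to 86349506), both on the plus strand, and Timp2 on chromosome 11 (118301069 to 118355740) on the minus strand. Counts cover the exons of each gene. The spans of some of these genes overlap others. On the opposite strand, Timp1 overlaps Syn1, Timp3 overlaps Syn3, Mmp12 overlaps Mmp1b, and Mmp19 overlaps Gm47093 and Tmem198b. Timp2 overlaps Cep295nl on the same strand. Overlap of exons was not examined and the use of strand in counting is not given, so reads may or may not be mixed.

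Library totals lay between 985423 and 18642747 counts (median 11362593), and levels are CPM, counts relative to the library total scaled by the TMM method. In 11 libraries, called doubtful here, either the total was below 3000000 or more than 30000 genes were detected. Those 11 include 3 of the 4 blood monocyte libraries and 2 of the 4 tumour-free microglia libraries, among them library 3 with 985423 counts. Defining markers matched the labels: P2ry12, a microglial receptor, was at 797 to 3320 CPM in microglia of tumour-bearing brains and 14.7 to 193 in their monocytes. Ly6g, the granulocyte marker, was at 12.9 CPM or more in every granulocyte library and at 0.72 or less in microglia, BMDM and monocytes of these brains. The ranges of both markers cover irradiated and unirradiated libraries. Unirradiated BMDM libraries also held dendritic cell markers, 6 of 6 detected. These summed to 294 to 2602 CPM, against 23.8 to 189 CPM in unirradiated monocytes. In bulk libraries, fewer cells of a type and less RNA per cell cannot be told apart.

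Of the 10 transcripts, 9 differed between at least 1 pair of the 4 populations of the unirradiated tumour-bearing brain, small and large stages together, and Timp3 between none. The share of all genes that differed between at least 1 pair was not computed. It cannot be below the 44.3% found between granulocytes and microglia alone. Granulocytes were highest in Mmp9 and Mmp8, monocytes in Mmp19, and microglia in Mmp2 and Timp2. BMDM were not told apart from monocytes in Mmp9, Mmp12, Mmp13, Mmp14 and Timp1, nor from microglia in Mmp12, Mmp14 and Mmp19. In the edgeR quasi-likelihood test, adjusted over all genes at a threshold of 0.05, 6 of 10 members differed between BMDM and microglia (8.31% of all genes tested did), 4 higher in BMDM (5.87%) and 2 lower (2.44%). Between monocytes and microglia 7 differed (18.9%), 5 higher in monocytes (8.81%) and 2 lower (10.1%). Granulocytes differed from microglia in 6 (44.3%), 2 higher (18.7%) and 4 lower (25.6%). From BMDM they differed in 7 (43%), 2 higher (18.3%) and 5 lower (24.8%), and from monocytes in 9 (41.2%), 4 higher (20.2%) and 5 lower (21%). Between monocytes and BMDM 4 differed (5.91%), 2 higher in monocytes (2.1%) and 2 lower (3.81%).

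**Figure D1:**
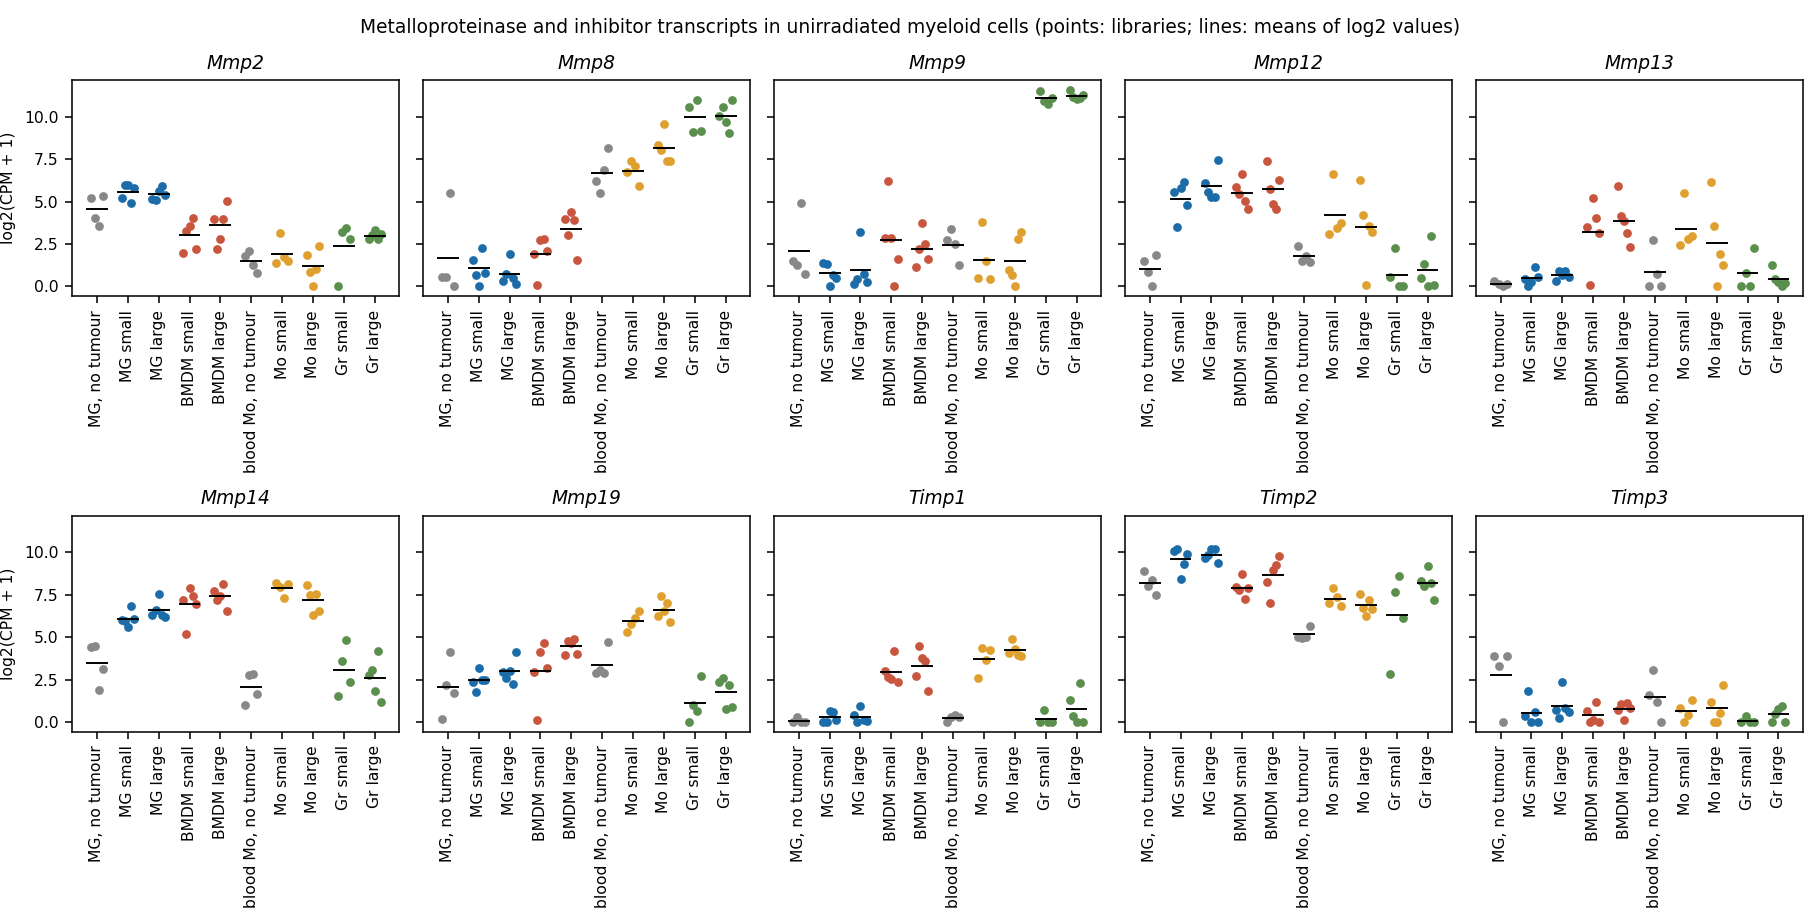
Level of each transcript, as log2(CPM + 1), in every unirradiated library, grouped by population (MG, microglia; Mo, monocytes; Gr, granulocytes) and by stage; the points are libraries and the lines are means of the log2 values. Mmp9 stands at 1769 to 3069 CPM in the 9 granulocyte libraries and at 75 CPM or less in all other libraries shown.

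Among the gelatinases, which degrade denatured collagen and type IV collagen, Mmp9 and Mmp2 were at their highest in different cells. Mmp9 was at 1769 CPM in the lowest, 2225 in the median and 3069 in the highest of 9 granulocyte libraries. In BMDM it ran from 0 to 75 CPM (median 4.07, n = 10), in monocytes from 0 to 13 (median 0.928, n = 9) and in microglia from 0 to 8.28 (median 0.512, n = 10). No library of another population reached the lowest granulocyte library. The difference from monocytes was 9.60 ± 1.12 (log2 fold change ± SE, adjusted p = 3.3e-09) and from BMDM 8.18 ± 0.97 (3.02e-09). Below granulocytes the order was not settled. BMDM exceeded microglia by 2.86 ± 0.80 (adjusted p = 0.0151), but this rested on library 2 of small-stage BMDM with its 75 CPM: without it the difference was 1.73 with an adjusted p of 0.176, and with RLE scaling the adjusted p was 0.052. Monocytes did not differ from microglia beyond the spread (1.44 ± 0.80, adjusted p = 0.222).

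Mmp2 was at 28.8 CPM in the lowest, 44.9 in the median and 62.4 in the highest of 10 microglia libraries. BMDM had 2.99 to 31.3 CPM (median 9.81), granulocytes 0 to 9.9 (median 7.12) and monocytes 0 to 7.86 (median 1.8). Microglia and BMDM overlapped only through large-stage BMDM library 5, at 31.3 CPM. Mmp2 was lower than in microglia by 2.14 ± 0.47 in BMDM (-2.14 on the log2 scale, adjusted p = 0.00138) and lower still in monocytes (-4.27 ± 0.55, 8.57e-08). Granulocytes and BMDM were not told apart (-0.49 ± 0.48, 95% interval -1.43 to 0.45). The microglia markers, 7 of 7 detected, summed to 1033 to 6612 CPM in large-stage BMDM against 7914 to 12864 in large-stage microglia, and their part in the Mmp2 of BMDM was not tested.

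The collagenases cut the native triple helix of fibrillar collagens, and in rodents Mmp13 and Mmp8 are the main ones. Mmp8, the collagenase of neutrophil granules, was at 540 to 2085 CPM (median 1063) in granulocytes and at 59.5 to 761 (median 167) in monocytes, with 1 large-stage monocyte library inside the granulocyte range. BMDM followed at 0.0791 to 19.9 CPM (median 5.91) and microglia at 0 to 3.84 (median 0.646). Each step of this order passed the test: granulocytes over monocytes by 2.75 ± 0.55 (adjusted p = 6.94e-05), monocytes over BMDM by 4.97 ± 0.58 (9.33e-07) and BMDM over microglia by 2.53 ± 0.55 (0.0011). The 8 granulocyte markers summed to 13 to 92.2 CPM in the unirradiated monocyte libraries against 8678 to 31000 in granulocytes and their part in the Mmp8 of monocytes was not tested.

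Mmp13, the collagenase next to Mmp12 on chromosome 9, was a transcript of BMDM and monocytes. It was at 0.0791 to 60.9 CPM (median 12.1) in BMDM and at 0 to 70.2 (median 5.84) in monocytes. Microglia had 0 to 1.25 CPM (median 0.478) and granulocytes 0 to 3.89 (median 0.181). BMDM exceeded microglia by 4.96 ± 1.00 (adjusted p = 0.000399) and granulocytes by 4.26 ± 1.03 (granulocytes minus BMDM -4.26, 0.000665). The libraries of BMDM and monocytes covered the same range, with a difference of -0.09 ± 0.85 (95% interval -1.76 to 1.58). The lowest BMDM library was again small-stage library 2, at 0.0791 CPM, where Mmp8 and Mmp19 also stood at 0.0791 CPM.

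Mmp12, the macrophage elastase, was shared by both macrophage populations. Its level ran from 10.2 to 173 CPM (median 46.6) in microglia and from 22.5 to 165 (median 47.8) in BMDM, with a difference of 0.07 ± 0.64 (95% interval -1.18 to 1.32). Monocytes had 0.0838 to 96.7 CPM (median 10.8) and did not differ from BMDM beyond the spread (-1.15 ± 0.68, adjusted p = 0.364). Granulocytes had 0 to 6.99 CPM (median 0.392), lower than monocytes by 4.03 ± 0.81 (-4.03, adjusted p = 8.4e-05).

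Mmp14 is anchored in the cell membrane and activates the precursor of Mmp2. Monocytes had 79.4 to 286 CPM (median 182), BMDM 34.7 to 275 (median 157) and microglia 47.6 to 189 (median 74.1). Granulocytes, at 1.27 to 27 CPM (median 5.88), lay below every library of the other 3 populations. They were lower than microglia by 3.14 ± 0.44 (-3.14, adjusted p = 7.37e-08). Monocytes exceeded microglia by 1.17 ± 0.39 (adjusted p = 0.0291), a call that was lost with RLE scaling (adjusted p = 0.0692) or when any of 9 libraries was left out (0.051 to 0.099). BMDM had a median between these populations and no call against either, though with the compared groups alone BMDM exceeded microglia (0.90, adjusted p = 0.0215).

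Mmp19, expressed by myeloid cells among others, was highest in monocytes. Monocytes had 38.6 to 173 CPM (median 74.3), above every library of BMDM (0.0791 to 28.9, median 15.6), microglia (2.42 to 16.7, median 4.79) and granulocytes (0 to 5.61, median 1). The difference from BMDM was 2.39 ± 0.48 (adjusted p = 0.00119). BMDM against microglia came to 1.32 ± 0.47 with an adjusted p of 0.0742, and passed the threshold with DESeq2 (0.0339), without the filter on low counts (0.0443) and without small-stage BMDM library 2 (0.0134).

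Among the inhibitors, Timp1 and Timp2 differed between populations. Timp1, an inducible secreted inhibitor, was at 4.94 to 29.2 CPM (median 15.6) in monocytes and 2.58 to 21.3 (median 6.32) in BMDM, but at 0.898 CPM or less in all 10 microglia libraries. Granulocytes had 0 to 3.86 CPM, with a median of 0. BMDM exceeded microglia by 5.11 ± 0.77 (adjusted p = 3.89e-06) with no overlap, and monocytes were not told apart from BMDM (0.77 ± 0.65, 95% interval -0.50 to 2.04). Timp2, an inhibitor made constitutively in many tissues, was highest in microglia, at 348 to 1180 CPM (median 931). BMDM had 127 to 897 CPM (median 277), granulocytes 5.97 to 591 (median 261) and monocytes 74.9 to 234 (median 129). Microglia exceeded BMDM (BMDM minus microglia -1.37 ± 0.36, adjusted p = 0.00782). BMDM exceeded monocytes in turn (monocytes minus BMDM -1.33 ± 0.37, 0.0228), a call lost when any of 4 libraries was left out (0.0515 to 0.0575). Granulocytes over monocytes (0.91 ± 0.37, adjusted p = 0.0481) was lost in 17 of 24 alternative fits. Timp3, which binds to the matrix, was at 4.19 CPM or less in every one of these 38 libraries and differed between no pair of populations.

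Levels of different genes were compared only per kilobase of exon. Summed over the 10 transcripts on that scale, the metalloproteinases made up 15.9% ± 6.45 (SD, n = 10) of the total in microglia and 36.9% ± 11 (n = 10) in BMDM. They made up 73.5% ± 7.45 (n = 9) in monocytes and 94.4% ± 4.03 (n = 9) in granulocytes. The range of microglia (9.51% to 28.7%) did not reach that of monocytes (66.2% to 89.8%). In microglia Timp2 alone was 84% ± 6.58 of the sum, in BMDM 55.3% ± 15.6, whereas in granulocytes Mmp9 was 56.1% ± 11.9 and Mmp8 37.9% ± 12.5. In monocytes Mmp8 was the largest share (39.9% ± 17.6), followed by Timp2 (17.8% ± 6.68). These are shares of transcript and say nothing of active enzyme.

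**Figure D2:**
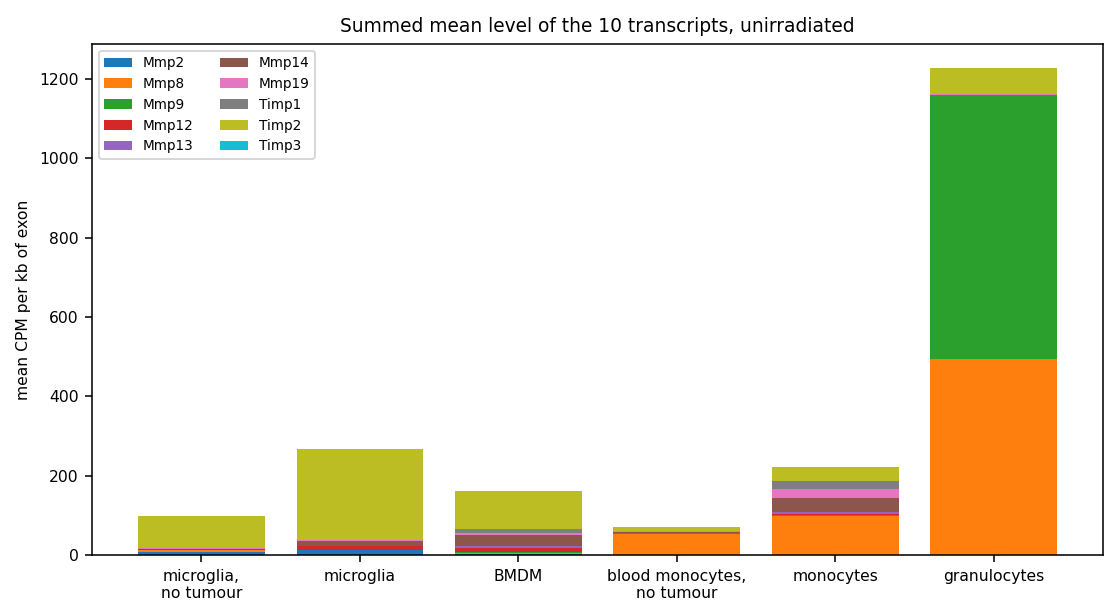
Mean level per kilobase of exon (CPM per kb) of the 10 transcripts, stacked for each population of unirradiated mice. The granulocyte bar is the tallest and consists almost wholly of Mmp9 (664 CPM per kb) and Mmp8 (492), while the microglia bar consists mainly of Timp2 (229).

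Microglia of tumour-bearing brains were set against tumour-free microglia to see how the family differs in the presence of metastases. At the small stage 4 of 10 members passed the test (15.4% of all genes tested did). Of these, 3 were higher (7.55% of all genes), namely Mmp12, Mmp14 and Timp2, and Timp3 was lower (7.82%). At the large stage 5 of 10 passed (31.9% of all genes). Mmp12, Mmp14 and Timp2 were again higher (11.7%), and Timp3 and Mmp8 were lower (20.2%). The median log2 fold change of the members was 1.18 and 1.15, against -0.03 and -0.26 over all genes.

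Mmp12 was at 1.85, 0.803, 0 and 2.63 CPM in the 4 tumour-free libraries. It was at 46.5, 10.2, 55.4, 70.1 and 26.5 CPM in the 5 small-stage and at 68.7, 46.7, 38.3, 38 and 173 CPM in the 5 large-stage libraries. The lowest tumour library was thus well above the highest tumour-free one. The log2 fold change was 4.69 ± 0.76 (adjusted p = 8.35e-05) and 5.42 ± 0.78 (1.25e-05), and the call was kept in all 15 alternative fits of each stage. Mmp14 was at 20, 20.9, 2.74 and 7.64 CPM in tumour-free microglia, at 47.6 to 113 in small-stage and at 71.5 to 189 in large-stage libraries, again with no overlap. It rose by 2.41 ± 0.47 (adjusted p = 0.000713) and 2.88 ± 0.48 (8.28e-05), and this call too was kept in all 15 fits of each stage.

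Timp2 was at 472, 258, 327 and 179 CPM in tumour-free microglia. It stood at 1071, 1174, 348, 623 and 960 CPM in the small-stage libraries, the third of which lay inside the tumour-free range, and at 655 to 1180 CPM in the large-stage libraries, all above it. The log2 fold change was 1.44 ± 0.29 (adjusted p = 0.000824) and 1.58 ± 0.29 (0.000227). The small-stage call was lost with the compared groups alone (1.41, adjusted p = 0.0847) and without the doubtful libraries (1.31, 0.0521). Mmp2, the enzyme that Mmp14 and Timp2 help to activate, was at 35.9, 15.7, 11 and 39.3 CPM in tumour-free microglia against 28.8 to 62.4 CPM in the 10 tumour libraries. Its difference of 0.91 ± 0.35 and 0.72 ± 0.35 did not pass the test (adjusted p = 0.0726 and 0.106).

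**Figure D3:**
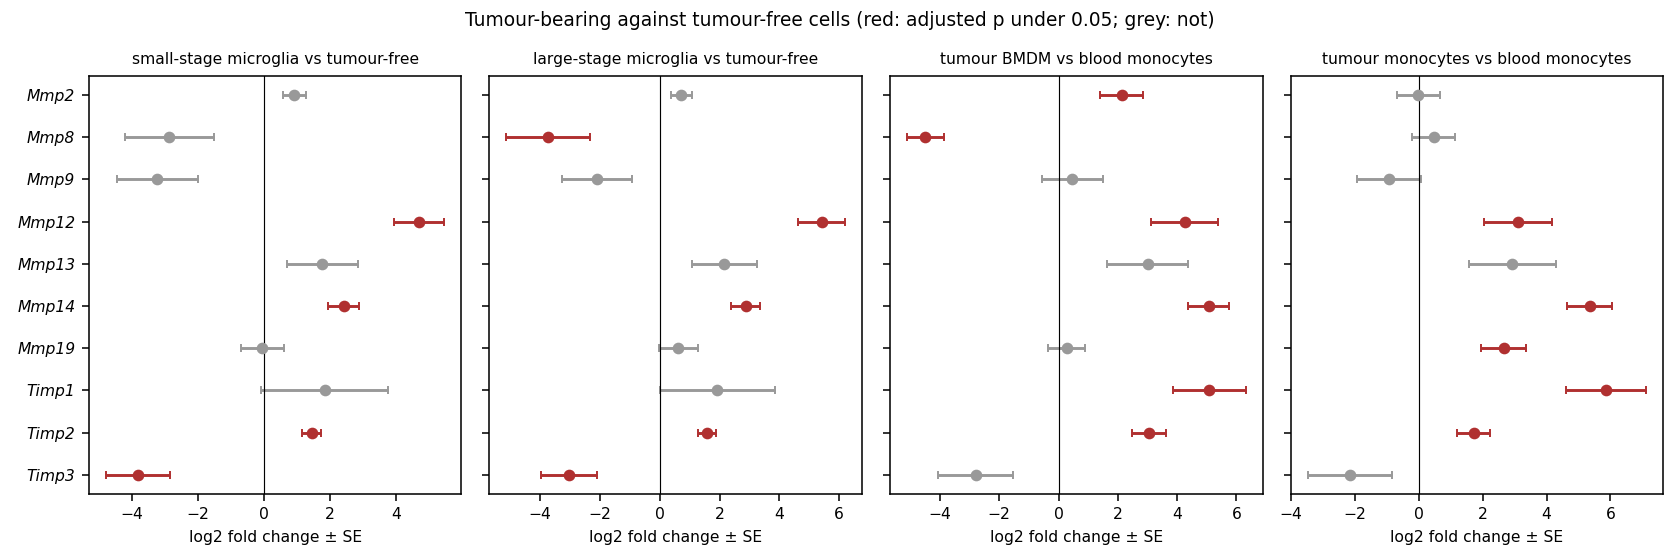
Log2 fold change ± SE of each member in microglia against tumour-free microglia, by stage, and in BMDM and monocytes of tumour-bearing brains against blood monocytes of tumour-free mice; red points passed the edgeR test. Mmp12, Mmp14 and Timp2 lie to the right of 0 in all 4 panels.

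Timp3 and Mmp8 went the other way, and the direction of Mmp8 turned on tumour-free library 3. Timp3 was at 13.8, 8.84, 0 and 13.5 CPM in tumour-free microglia and at 4.19 CPM or less in the 10 tumour libraries (-3.81 ± 0.97, adjusted p = 0.00772, and -3.03 ± 0.93, 0.0151), the groups overlapping through library 3 at 0. Without that library the call was kept at both stages, and with the compared groups alone it was lost at both stages (adjusted p = 0.223 and 0.103). Astrocyte markers were lower in the tumour groups too: all 7 were detected in each group, with a summed level of 1028 to 1690 CPM in tumour-free microglia, 135 to 359 at the small and 166 to 358 at the large stage. Library 3, with Timp3 at 0, had an astrocyte sum of 1028 CPM, as did library 1, with Timp3 at 13.8 CPM. Their part in the Timp3 result was not tested. Mmp8 was at 0.494, 0.459, 44.5 and 0 CPM in tumour-free microglia and at 0 to 3.84 CPM in tumour microglia (large stage -3.73 ± 1.40, adjusted p = 0.0412). The value of 44.5 CPM belongs to library 3, the shallowest of the series, in which the granulocyte markers summed to 311 CPM against 0.259 to 16 in the other 3 and Ly6g was at 0 in all 4. Without that library the direction turned, to 1.45 with an adjusted p of 0.43 at the large stage and to 2.32 (0.319) at the small stage, where the difference with it was -2.86 ± 1.35 and not called. Mmp9 was at 29.5 CPM in the same library and at 0.648 to 1.85 in the other 3, and did not pass the test at either stage (-3.22 ± 1.21 and -2.10 ± 1.16, adjusted p = 0.0672 and 0.16), though it did at the small stage with RLE scaling (0.0433) and DESeq2 (0.00956).

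Inflammatory monocytes and BMDM of tumour-bearing brains were compared with blood monocytes of tumour-free mice, the nearest circulating cells in the series. These comparisons share the blood libraries, of which 3 of 4 are doubtful. In monocytes 5 of 10 members rose and none fell, where 6.9% of all genes rose and 40.2% fell (47.1% together). In BMDM 5 rose and 1 fell, where 6.28% of all genes rose and 36% fell (42.3% together). The median over all genes was -0.99 and -0.80, and moved to -1.50 and -1.18 with RLE scaling, so that member values are to be read against it. The members' medians were 2.19 and 2.57.

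Mmp14 was at 1.01, 5.82, 6.08 and 2.13 CPM in blood monocytes, against 79.4 to 286 CPM in the 9 tumour monocyte and 34.7 to 275 CPM in the 10 BMDM libraries. No tumour library came near the blood libraries. It rose by 5.35 ± 0.70 in monocytes (adjusted p = 1.4e-06) and 5.06 ± 0.69 in BMDM (2.23e-06), and was called in every alternative fit, also with the 1 blood library that is not doubtful (adjusted p = 0.0217 and 0.0123). Timp1 gave 7 reads in all in the 4 blood libraries (0, 0.233, 0.331 and 0.237 CPM) and 1737 reads in the 9 tumour monocyte libraries. It rose by 5.86 ± 1.26 in monocytes (adjusted p = 0.000547) and 5.09 ± 1.22 in BMDM (0.00192), with no overlap in either.

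Mmp19 was at 6.32, 7.21, 6.41 and 25 CPM in blood monocytes and rose in tumour monocytes by 2.66 ± 0.71 (adjusted p = 0.0022), all 9 libraries lying above the highest blood library. In BMDM it did not differ (0.27 ± 0.62, 95% interval -0.95 to 1.49). Timp2 was at 31.8, 30, 31.2 and 48.9 CPM in blood and rose in monocytes by 1.72 ± 0.52 (adjusted p = 0.00567) and in BMDM by 3.05 ± 0.56 (0.000218). Mmp12 was at 4.3, 1.86, 2.54 and 1.74 CPM in blood and rose by 3.11 ± 1.07 in monocytes (adjusted p = 0.0152) and 4.26 ± 1.13 in BMDM (0.00358). The monocyte call for Mmp12 was lost without small-stage monocyte library 2 (2.10, adjusted p = 0.0732), without blood library 4 (2.66, 0.0531) and with the compared groups alone (3.11, 0.0577).

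Mmp8 fell in BMDM. Blood monocytes had 72.8, 44.7, 115 and 292 CPM, BMDM at most 19.9 (-4.49 ± 0.62, adjusted p = 2.43e-06), and tumour monocytes 59.5 to 761 (0.47 ± 0.67, 0.601). The granulocyte markers, 8 of 8 detected in both, summed to 67.7 to 480 CPM in blood monocytes, 8.14 to 22.7 in small-stage and 4.77 to 52.8 in large-stage BMDM. In tumour monocytes, where Mmp8 had no call, they summed to 13 to 30.7 CPM at the small and 39.8 to 92.2 at the large stage. The part of these markers in the Mmp8 values was not tested.

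Mmp13 had 0, 5.58, 0.663 and 0 CPM in blood and did not pass in either (2.92 ± 1.36 and 3.01 ± 1.36, adjusted p = 0.0744 and 0.0697). It passed in both without blood library 2 (6.09, 0.0105, and 6.13, 0.019). Without the filter on low counts it also passed (0.00356 and 0.0039), but there 24040 and 22086 genes passed, against 10678 and 9588 with the filter. Mmp2 rose in BMDM by 2.13 ± 0.72 (adjusted p = 0.0154), a call lost without blood library 4 (1.61, 0.0779). Without the doubtful libraries 1 member stayed called in monocytes (Mmp14) and 2 in BMDM (Mmp14 and Mmp8), with 1 blood library left. The 4 T and NK cell markers summed to 48.8 to 1608 CPM in blood monocytes and to 25.5 CPM or less in tumour monocytes. In BMDM they summed to 0.513 to 72.5 CPM at the small stage, overlapping blood, and to 0 to 17.4 CPM at the large stage. The part of these markers in the differences from blood was not tested.

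Growth of the metastases from the small to the large stage was tested within each population. No member passed in any of the 4 populations with edgeR, where 0% of all genes passed in microglia, BMDM and monocytes and 0.0141% in granulocytes. None passed with DESeq2, and 2 of 40 tests (5%) had an unadjusted p under 0.05, against 3.9% to 12.4% of all genes by comparison. These were Timp2 in BMDM (0.95 ± 0.41) and Mmp8 in monocytes (1.55 ± 0.54), and the libraries of the 2 stages overlapped in both. Small-stage monocytes had Mmp8 at 59.5 to 170 CPM and large-stage monocytes at 328, 260, 761, 167 and 165 CPM. Without the filter on low counts, Mmp8 in monocytes had an adjusted p of 0.0107, and 158 genes passed there, against 0 with the filter.

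After radiotherapy, 1 of 160 tests passed: Mmp2 in microglia on day 3 after a single fraction of 10 Gy. In microglia the share of all genes that passed was 0.0607% on day 3, 0.0354% on day 5 and 0.00506% on day 10 after 5 fractions of 2 Gy, and 0.101% after the single fraction. It was 0.0063% in BMDM after the single fraction and 0% in the other 11 comparisons. Irradiated groups were set against the mean of the small and large stages. An unadjusted p under 0.05 was found in 24 of the 160 tests (15%), against 1.81% to 10.1% of all genes by comparison. DESeq2 passed 2 of the tests, both for Mmp2 in microglia. It called 169 genes in all after 10 Gy (20 with edgeR) and 58 on day 10 (1 with edgeR).

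Mmp2 in unirradiated microglia was at 28.8 to 62.4 CPM in 10 libraries. On day 3 after 10 Gy it was at 195, 158 and 120 CPM, all 3 above that range, a rise of 1.73 ± 0.30 (adjusted p = 0.00396). The call was lost without library 1 of the irradiated group (1.56, adjusted p = 0.142) and with the small stage alone as the reference (1.63, 0.0862). The 5 fractions of 2 Gy gave 70.3, 109, 95 and 82.2 CPM on day 3, again all above the unirradiated range (0.94 ± 0.29, adjusted p = 1). On day 5 the values were 54.3, 54, 93.2 and 139 CPM, overlapping that range (0.87 ± 0.29, adjusted p = 1) and on day 10 they reached 132 CPM, with a mean of 118 ± 12.2 (SD, n = 3), all above it (1.35 ± 0.31, adjusted p = 0.362). These schedules had no call with edgeR; DESeq2 called day 10 (adjusted p = 0.0107). All 14 irradiated microglia libraries thus stood between 54 and 195 CPM, and the comparisons share their unirradiated libraries. The single fraction against the 5 fractions on day 3 gave 0.79 ± 0.38, which did not pass (adjusted p = 0.751).

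In BMDM, Mmp2 after 10 Gy was at 52.3, 20.3 and 39.5 CPM against 2.99 to 31.3 in unirradiated libraries (1.73 ± 0.59, adjusted p = 0.464). Whether the change of Mmp2 differed between BMDM and microglia was tested as an interaction, which passed for none of the 4 radiotherapy groups, nor did that of any other member, nor that of stage. In these 5 interactions 0 of 50 tests passed with edgeR and 0 with DESeq2, 4 of 50 had an unadjusted p under 0.05 (1.38% to 17.6% of all genes did), and 0.00516% of all genes passed for 5 fractions on day 3 and 0% in the others.

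Mmp14 did not pass in BMDM or monocytes, though some groups lay above the unirradiated range. In BMDM it was at 310, 533 and 380 CPM on day 10, all above the unirradiated range of 34.7 to 275 (1.30 ± 0.33, unadjusted p = 0.000714, adjusted p = 0.54). In monocytes it was at 460, 352 and 361 CPM after 10 Gy, above the unirradiated range of 79.4 to 286 (0.94 ± 0.32, unadjusted p = 0.00799, adjusted p = 0.513). In monocytes on day 10 it was at 267, 640 and 355 CPM (1.07 ± 0.32, adjusted p = 0.74). Without the filter on low counts, both day 10 differences passed (adjusted p = 0.0411 in BMDM and 0.0312 in monocytes). There 14 genes passed in BMDM and 42 in monocytes, against 0 in each with the filter.

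**Figure D4:**
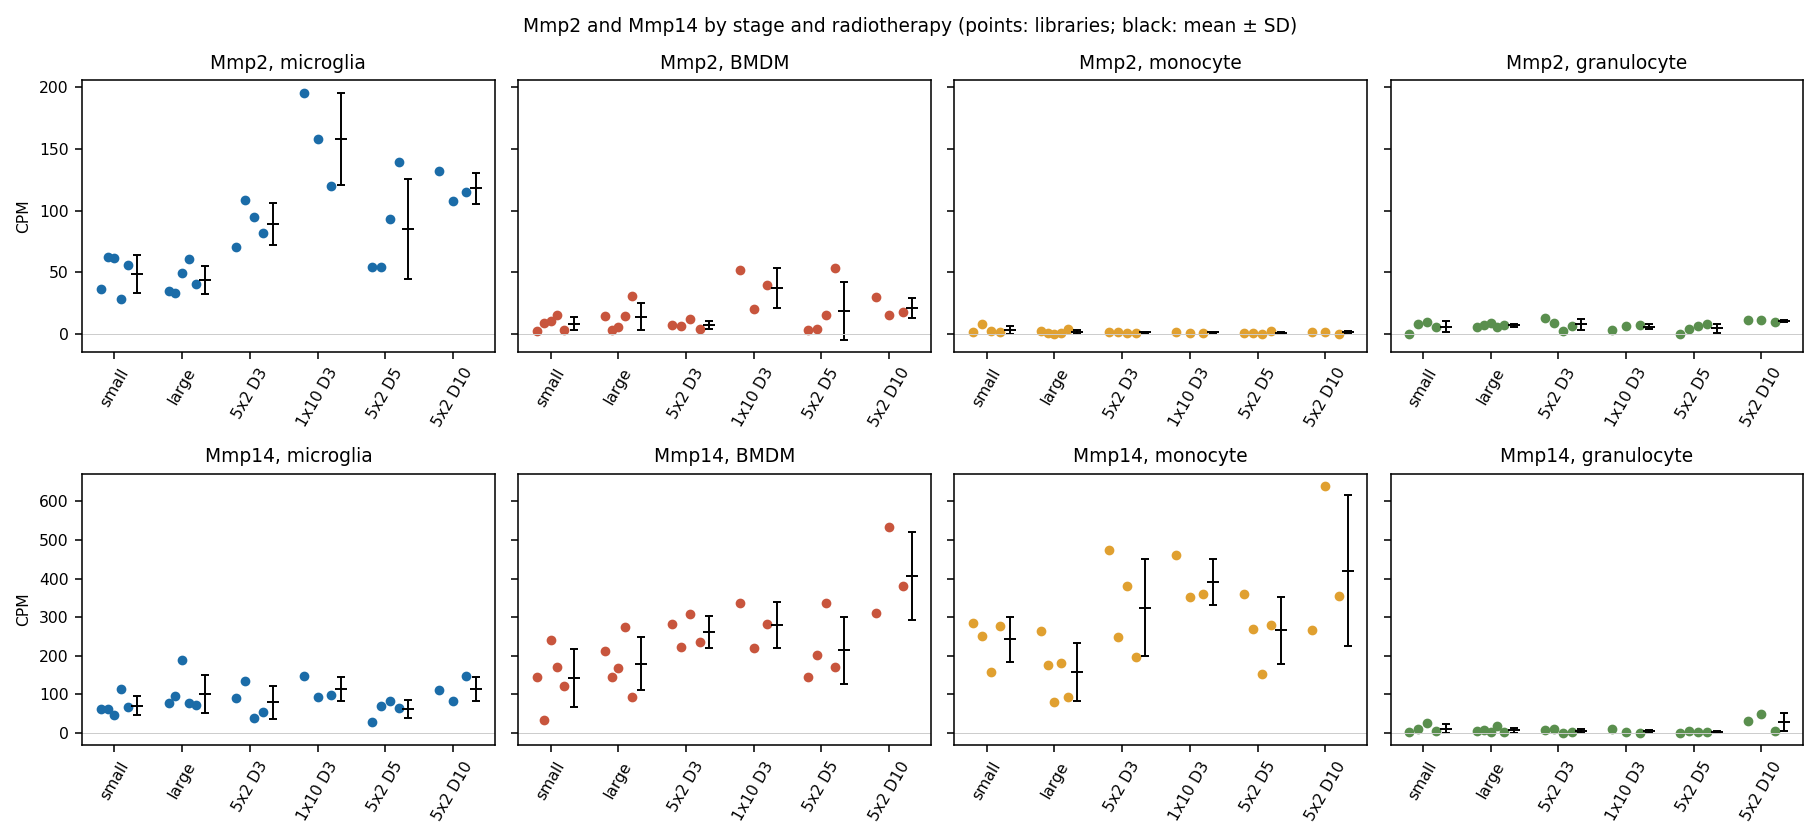
Level (CPM, linear axis) of Mmp2 and Mmp14 in every library of the 4 populations of tumour-bearing brains, by stage and radiotherapy group; points are libraries, black marks are mean ± SD. Mmp2 in irradiated microglia lies between 54 and 195 CPM, and Mmp14 is lowest in granulocytes, at 49.7 CPM or less.

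No other member passed after radiotherapy. Several had an unadjusted p under 0.01 on few reads or through single libraries. Mmp13 in microglia on day 5 was at 0.436, 1.64, 3.91 and 6.91 CPM against 0 to 1.25 without irradiation (2.57 ± 0.73, unadjusted p = 0.00139, adjusted p = 1). Mmp8 in BMDM on day 10 was at 8.11, 88.5 and 8.2 CPM against 0.0791 to 19.9 (2.39 ± 0.81, adjusted p = 0.775), so that library 2 stood alone. The granulocyte markers of these libraries summed to 27.6, 189 and 3.06 CPM, highest in library 2 too. In BMDM on day 5, Mmp8 was at 77.2 CPM in library 3 and at 7.02 to 9.99 in the others. There the granulocyte markers summed to 23.5 CPM in library 3 and were highest in library 1, at 147 CPM. The part of these markers was not tested. Timp3 in granulocytes on day 10 was at 3.28, 3.74 and 1.03 CPM against 0 to 0.92, on 48 reads in all (3.68 ± 1.27, adjusted p = 1).

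Mmp9 in granulocytes was at 2273 to 4523 CPM in the 14 irradiated libraries (median 3106) against 1769 to 3069 without irradiation, with log2 fold changes from 0.08 to 0.58 and no call. Timp2 in microglia was at 580 to 1474 CPM (median 917) against 348 to 1180. Timp1 in microglia reached 11.2 CPM in library 4 of the day 3 group after 5 fractions of 2 Gy, where the other 3 had 0.34 or less (3.49 ± 1.19, adjusted p = 1). Mmp12 in microglia on day 10 was at 22.9, 15.5 and 26.7 CPM, inside the unirradiated range (-1.37 ± 0.63, adjusted p = 0.909). Day 10 against day 3 and the 2 schedules on day 3 were compared in microglia and in BMDM. None of the 40 tests passed with edgeR or DESeq2, 5 had an unadjusted p under 0.05 (1.3% to 5.21% of all genes did), and 0% of all genes passed in each of the 4 comparisons.

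The tumour-free microglia with 5x2 in their titles were compared with the other tumour-free microglia, and none of the 10 members passed with edgeR for day 3 (1.91% of all genes did, 0.825% higher and 1.09% lower) or day 5 (1.35%, 0.795% higher and 0.552% lower). An unadjusted p under 0.05 was found for 12 of the 20 tests, and for 25.5% (day 3) and 23.5% (day 5) of all genes. DESeq2 called 3 members for day 3 (Mmp2, Mmp8 and Mmp9) and 4 for day 5 (Mmp2, Mmp8, Mmp12 and Mmp19), but over all genes it also called 2379 and 2046, against 378 and 266 with edgeR. Mmp2 was at 48.1, 53 and 83.6 CPM in the day 3 group, above all 4 other tumour-free libraries (1.18 ± 0.38, adjusted p = 0.0744). Timp3 was at 16.1, 90.5 and 102 CPM in the day 3 group and at 8.91, 72.9 and 113 CPM in the day 5 group. The astrocyte markers in these 6 libraries summed to 534, 2862 and 1914 CPM and to 1335, 2198 and 2424 CPM. Fibroblast and mural cell markers, 10 in the list, summed to 17.6, 53.3 and 75 CPM on day 3, and to 10.8 CPM in library 1 and 96.8 or more in the other two on day 5, against 19.2 to 57.6 in the other tumour-free microglia. In both groups the library with the least Timp3 had the lowest sum of either list. On day 3 the fibroblast and mural sums had the order of Timp3 and Mmp2, and the astrocyte sums did not. On day 5 the astrocyte sums had the order of Timp3. The fibroblast and mural sums did not, being lower in library 3 (96.8 CPM), which had the most Timp3, than in library 2. Endothelial markers summed to 133, 202 and 229 CPM on day 3, in the order of Timp3. On day 5 they summed to 46.7, 230 and 128 CPM, in another order. The part of these markers in the Timp3 and Mmp2 values was not tested. Whether these mice were irradiated is not clear from the labels, and the groups are not treated as irradiated here.

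Other genes of the pathway were taken from lists. They were chosen with earlier results of these data known and are given as counts. Of 16 other metalloproteinases, 15 were tested between populations. Mmp25, a membrane-anchored enzyme of leukocytes, passed in 5 of the 6 comparisons. Mmp25 was higher in granulocytes than in monocytes (5.34 ± 0.65, adjusted p = 7.84e-09), microglia (5.18 ± 0.60, 1.42e-09) and BMDM (1.66 ± 0.52, 0.00773), and higher in BMDM than in microglia (3.52 ± 0.55, 8.04e-06). Between granulocytes and monocytes 3 of the 15 were higher in granulocytes and 1 lower, where 20.2% of all genes were higher and 21% lower, so the higher count is at the background. The median log2 fold change of the list was 1.38 against 0.39 over all genes. Mmp7, known as matrilysin, was higher in BMDM than in microglia (6.08 ± 1.24, adjusted p = 0.00134) and lower in monocytes than in BMDM (-6.72 ± 1.35, 0.00269). The 4 epithelial or tumour markers summed to 47.8 to 99.4 CPM in small-stage and 34.4 to 82.3 in large-stage BMDM. Krt8, one of them, had no reads in small-stage BMDM. In microglia they summed to 1.52 to 10.9 and 0.343 to 5.19 CPM, and in monocytes to 6.75 to 19 and 5.11 to 61.7. In granulocytes they summed to 0.459 to 42.4 and 28.6 to 127 CPM, and Mmp7 was lower there than in BMDM (-5.81 ± 1.45, adjusted p = 0.00171). The part of these markers was not tested. Mmp11 was lower in granulocytes than in microglia (-6.65 ± 1.22, 1.54e-05). Against blood monocytes, 0 rose and 10 fell of 15 in tumour monocytes, where 40.2% of all genes fell. In BMDM 2 rose and 9 fell, where 36% of all genes fell, and Mmp25 was among those that rose (4.53 ± 0.91, adjusted p = 0.000567). Medians there were -5.02 and -3.78 over the list against -0.99 and -0.80 over all genes. These counts rest on the doubtful blood libraries, in which 31615 to 37161 genes were detected: without all doubtful libraries 90 genes in place of 10678 were called in monocytes and 299 in place of 9588 in BMDM.

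Of the 11 activators, cofactors and clearance genes, 5 were higher and 2 lower in granulocytes than in monocytes (20.2% and 21% of all genes were). Lcn2, a granule protein that binds Mmp9 and protects it from degradation, was higher in granulocytes by 6.70 ± 0.66 (adjusted p = 6.42e-11). Furin, which cuts the precursor of Mmp14, was higher by 1.60 ± 0.34 (0.000199), and Lrp1, a receptor that clears metalloproteinases, was lower (-3.31 ± 0.42, 2.17e-08). In microglia against tumour-free microglia, Plaur, the urokinase receptor that focuses plasmin formation at the cell surface, rose at the small and large stages by 3.06 ± 0.44 and 3.49 ± 0.45 (adjusted p = 1.51e-05 and 2.2e-06). Of the 9 tested it was the one that rose, and Lcn2 fell at the small stage (-4.61 ± 1.55, 0.0416). Of the 10 ADAM and ADAMTS proteases, relatives that shed membrane proteins or cut proteoglycans, 3 rose at each stage, none fell at the small and 2 fell at the large stage. Over all genes 7.55% rose and 7.82% fell at the small stage and 11.7% and 20.2% at the large stage, so the 2 that fell are at the background. Adam8 rose by 2.91 ± 0.80 and 4.55 ± 0.85 and Adam9 by 2.17 ± 0.44 and 2.54 ± 0.45. Mmp25 rose too (3.97 ± 0.83 and 3.37 ± 0.82) and Mmp11 fell (-1.54 ± 0.44 and -1.72 ± 0.44).

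Among 3 other inhibitors, Timp4 and A2m fell in microglia of both stages alongside Timp3. Timp4 changed by -5.97 ± 1.28 and -4.89 ± 1.21 (adjusted p = 0.00191 and 0.0038) and A2m, a plasma inhibitor that traps proteases, by -4.88 ± 1.19 and -4.97 ± 1.19 (0.00558 and 0.00299). The astrocyte sums given for Timp3 apply here too. Of the neutrophil serine proteases, which can activate metalloproteinase precursors, Prtn3 was higher in monocytes than in granulocytes (granulocytes minus monocytes -3.32 ± 0.65, adjusted p = 5.8e-05). Elane and Ctsg did not pass the test there. Of the 10 matrix substrates, 3 were lower in granulocytes than in monocytes, near the 21% of all genes, among them Fn1, which encodes fibronectin (-5.07 ± 0.86, 5.34e-06). Fn1 rose in large-stage microglia against tumour-free microglia by 5.01 ± 1.41 (0.00906).

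To place each member among all genes, the genes with the most similar pattern were taken as the 3 with the highest Pearson correlation of log2(CPM + 1) means over the 28 groups, among genes reaching 10 CPM. The groups share their populations, so these values are high for many genes and describe the pattern only. For Mmp9 these genes were Asprv1 (r = 0.991), Ankrd33b (0.982) and Il1f9 (0.982), and for Mmp8 they were Slc28a2 (0.992), Tarm1 (0.983) and Pira2 (0.982). Mmp14 went with Dab2 (0.976), Cxcl16 (0.975) and Car13 (0.973), Mmp19 with Mlkl (0.955), Fam129b (0.943) and Ccl9 (0.936), and Mmp2 with B3galt5 (0.958), Rapgef5 (0.95) and Tgfa (0.95). Mmp12 went with Cd72 (0.966), Ly9 (0.936) and Ccl2 (0.934). Htr7 was nearest both to Mmp13 (0.946) and to Timp1 (0.97). Timp2 went with Nnt (0.914), Nop2 (0.913) and Ulk2 (0.903), and Timp3 with Bmp7 (0.977), Tspan6 (0.976) and Sdc2 (0.973). Without the doubtful libraries, 26 of these 30 genes were still among the first 10 of their member.

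Within a population the members varied from library to library, and Mmp12 and its neighbour Mmp13 were followed in each library of monocytes and BMDM. Levels were taken as deviations of log2(CPM + 1) from the mean of their group, and permuted within groups. In 23 monocyte libraries of all stages and radiotherapy groups, these deviations rose and fell together, with r = 0.88 (permutation p = 4e-05, adjusted over 66 relations 0.00132) and rho = 0.76 (0.00011, adjusted 0.00363). Without the 2 libraries whose Mmp12 deviation was farthest from the median, r was 0.797. In the 24 BMDM libraries r was 0.225 (permutation p = 0.343, adjusted 0.6) and rho 0.272 (0.271, adjusted 0.562). The difference between the 2 populations was not tested. The relations were computed after the levels had been seen, and library depth and makeup are shared by both genes of a library.

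**Figure D5:**
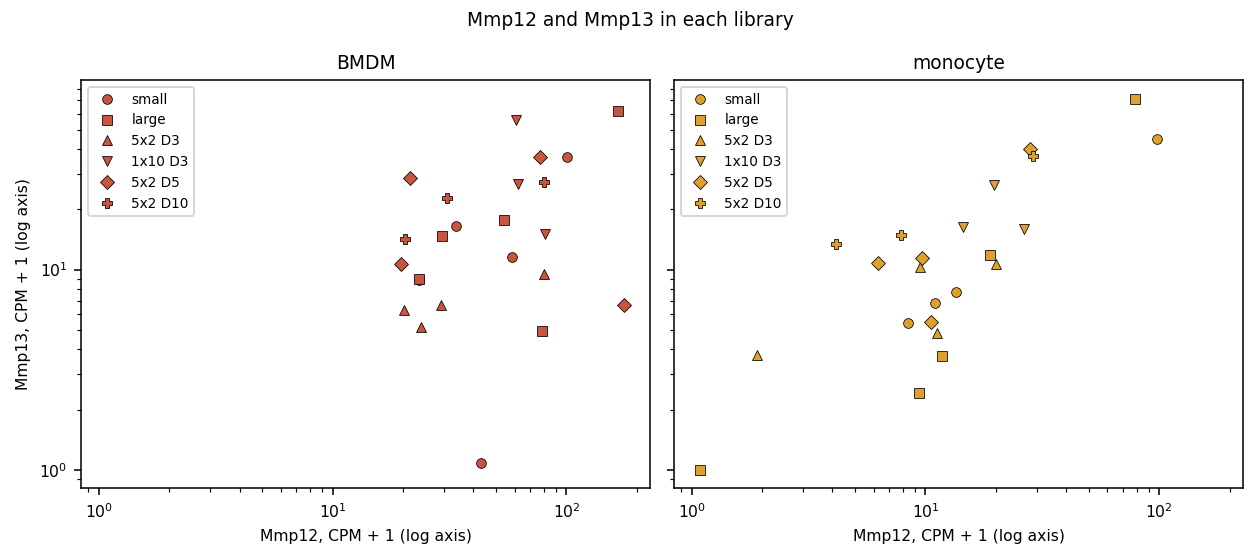
Mmp13 against Mmp12 in each library (CPM + 1, log axes) of BMDM and monocytes; the shape of a point gives the stage or radiotherapy group. The correlations given in the text, r = 0.88 in monocytes (n = 23) and 0.225 in BMDM (n = 24), were computed on deviations from group means and not on the plotted levels.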

How the data were processed

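RNA-seq libraries were made from total RNA of sorted cells. The build GRCm38 and the tools HTSeq, TopHat2 2.0.14, DESeq2 1.18.1 and FastQC appear in the submitters' processing notes, without the role of each. Values are raw read counts per gene as deposited by the authors in 1 table, with no normalization; whether counting used strand is not given in the sources used here. Every column matched a library by title.

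Levels are CPM with TMM factors (0.573 to 2.25) over all libraries, and per kilobase of merged exon length (GENCODE M21). Differences were tested with edgeR 4.0.16 (quasi-likelihood F-test, TMM, filterByExpr with a minimum count of 10 and total of 15) in R 4.3.3, with Benjamini-Hochberg adjustment over all genes tested and a threshold of 0.05, in 41 comparisons from 6 fits, each holding all groups of the comparison's family. Correlations used log2(CPM + 1). Those between members within a population used deviations from group means and 100000 permutations within groups. The tests were checked on simulated counts. Alternatives were RLE scaling, no filter, DESeq2 1.42.0, a replicate block, the compared groups alone, 1 stage as the reference for radiotherapy, leaving out the 11 doubtful libraries and leaving out each library.

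The 10 genes and the other lists were chosen with earlier results of these data known. Named genes are the members, up to 4 genes per list and comparison with the smallest adjusted p past the threshold, and the 3 nearest genes of each member. No 2 libraries of a group agreed within counting noise. Precision follows from totals of 985423 to 18642747 counts per library.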

Additional observations from a re-analysis of the deposited data

Results flagged for a closer look

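In groups of 4 or 5 libraries, a value was singled out where its gap to the nearest library was large relative to the range of the group on the log2(CPM + 1) scale (Dixon's 95% limit). Of 107 groups of values tested, 7 (6.54%) held such a library, where chance gives about 5%.

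In tumour-free microglia, library 3 had Mmp8 at 44.5 CPM, with the other 3 at 0 to 0.494, and Timp3 at 0 CPM, with the others at 8.84 to 13.8. This is the shallowest library of the series. In tumour-free blood monocytes, library 4 had Mmp19 at 25 CPM, with the others at 6.32 to 7.21, and Timp2 at 48.9 CPM, with the others at 30 to 31.8. It is the 1 blood library that is not among the doubtful ones.

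Mmp8 was at 77.2 CPM in library 3 of BMDM on day 5 after 5 fractions of 2 Gy, against 7.02 to 9.99 in the others. Mmp13 was at 43.9 CPM in library 2 of small-stage monocytes, against 4.41 to 6.77, the library that was also highest in Mmp12. Timp1 was at 11.2 CPM in library 4 of microglia on day 3 after 5 fractions of 2 Gy, against 0 to 0.34.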

How the results depend on the processing

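Of 60 member calls, 43 were kept under all alternatives run, 8 were lost when 1 library was left out, 11 changed without the doubtful libraries and 2 were lost with the replicate block. The number of members called moved by more than 1.5 times in these cases. With the compared groups alone it was 2 (small stage) and 3 (large stage) for microglia against tumour-free microglia, where all genes called went from 3035 to 466 and from 6309 to 1095. For the microglia titled 5x2 it was 1 on day 3 with RLE scaling, 1 without the filter and 3 with DESeq2, and 4 on day 5 with DESeq2. All genes called there were 674, 743 and 2379 on day 3, from 378, and 2046 on day 5, from 266. Without the doubtful libraries it was 1 for monocytes and 2 for BMDM against blood monocytes. It was 1 without the filter for the stage in monocytes and for day 10 in BMDM and in monocytes, where all genes called went from 0 to 158, 14 and 42. It was 1 with DESeq2 for day 10 in microglia (all genes from 1 to 58). It was 0 for 10 Gy in microglia with the small stage as the reference (all genes from 20 to 12). The cause was not tested. Smaller moves included calls gained: Mmp8 and Mmp9 in small-stage microglia with DESeq2, Mmp14 (compared groups alone) and Mmp19 (no filter, DESeq2, compared groups alone) in BMDM against microglia, and Mmp19 in granulocytes against microglia (RLE scaling, no filter, DESeq2). Mmp8 in large-stage microglia turned from -3.73 to 2.02 without the doubtful libraries, and ran from -4.91 to 1.45 when 1 library was left out, the latter without tumour-free library 3.

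Leaving out 1 library at a time gave 4 to 6 calls in microglia at each stage, 0 to 4 and 0 to 3 for the titles with 5x2 on days 3 and 5, and 0 to 1 for 10 Gy in microglia. Between populations it gave 6 to 7 for BMDM and microglia, 6 to 8 for monocytes and microglia, 6 to 7 for granulocytes and microglia, 3 to 4 for monocytes and BMDM, 7 for granulocytes and BMDM and 8 to 9 for granulocytes and monocytes. Against blood it gave 4 to 6 in monocytes and 6 to 7 in BMDM. Stage, the other radiotherapy comparisons, time, schedule and interactions stayed at 0.

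Libraries share replicate numbers across groups, but not every same-numbered pair deviated together (18 of 24 for microglia and BMDM had a correlation over 0.1). Of 278 comparisons, 209 (75.2%) correlated best with their own number, a hint from the data and not the design. With the replicate block, Mmp8 in large-stage microglia (-2.64, adjusted p = 0.193) and Timp2 in granulocytes against monocytes (0.65, 0.18) lost their call. Mmp12 in monocytes against microglia (-2.11, 0.045) and Mmp19 in granulocytes against microglia (-1.49, 0.0193) gained one.

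Precision is limited by depth for members with few reads, such as Timp1 in blood monocytes (7 reads) and Mmp13 in tumour-free microglia (5 reads).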

Other observations

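Relations between members were computed within microglia, BMDM, monocytes and granulocytes, on deviations of log2(CPM + 1) from group means. Of these 66 relations, 8 had an adjusted p under 0.05 by r and 3 by both r and rho, all in BMDM or monocytes. Beside Mmp12 and Mmp13 in monocytes, the 3 hold 2 pairs in the 24 BMDM libraries. The 5 that passed by r alone were, in BMDM, Mmp8 with Timp1, Mmp14 and Mmp13 and Mmp19 with Timp1 (r = 0.672, 0.619, 0.549 and 0.528), and in monocytes Mmp19 with Timp1 (0.743). Mmp8 and Mmp19 had r = 0.796 (permutation p = 1e-05, the smallest that the permutations can give, adjusted over 66 relations 0.00066) and rho = 0.823 (adjusted 0.00132). Without the 2 libraries whose Mmp8 deviation was farthest from the median, r was 0.817. Mmp13 and Mmp14 had r = 0.822 (permutation p = 0.00089, adjusted 0.0196) and rho = 0.724 (adjusted 0.0187), and 0.738 without the farthest 2. In the 23 monocyte libraries the same pairs had r = 0.196 (adjusted p = 0.655) and 0.347 (0.541), and the difference from BMDM was not tested. In small-stage BMDM library 2, Mmp8, Mmp13 and Mmp19 were all at 0.0791 CPM.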
